A study of Mus musculus with 6 samples.

Results

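The genes described here are 35 genes of the contractile apparatus of skeletal muscle: the thin and thick filaments, the Z-disc, the machinery that releases and recovers calcium, and muscle creatine kinase. They were taken by name from the deposited table, which lists 55487 genes, and all 35 were found. All 35 also passed the filter on low counts, as did 17175 genes in all. The study asked what haemoglobin does in chondrocytes, and its RNA sequencing compared the knee cartilage of mice at postnatal day 6 (P6), with 3 libraries from WT and 3 from Hbb-cKO mice. The labels give WT mice as wildtype and Hbb-cKO mice as having Hbb, the gene locus of adult β-globin, deleted in chondrocytes. The study's methods describe floxed Hbb mice on a C57BL/6J background that were crossed either with Prx1-Cre, which acts in limb mesenchyme, or with tamoxifen-induced Col2a1-CreERT2, which acts in chondrocytes. The paper uses the name Hbb-cKO for the animals of the Col2a1-CreERT2 cross. Its sequencing methods and the labels of these libraries name no Cre line, tamoxifen dose or control genotype, and do not say how many mice went into each library. A library is therefore the unit of replication, and p-values measure the spread between libraries, which may be partly technical.

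Skeletal muscle shortens when thick filaments of myosin pull on thin filaments of actin within the sarcomere, the repeating unit that the Z-discs bound. Troponin and tropomyosin keep actin and myosin apart at rest. A nerve impulse reaches the voltage sensor in the surface membrane, which opens the ryanodine receptor of the sarcoplasmic reticulum, and the calcium released binds troponin and allows contraction. Calcium pumps then return the ion to the store, where calsequestrin holds it. Many of these proteins exist as products of separate genes for fast and slow fibres, and limb muscles of newborn mice are still replacing embryonic and perinatal forms with adult ones. The labelled tissue is cartilage, and the labels name no muscle.

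Muscle regulators bind upstream of many of these genes: the MyoD family at E-boxes, serum response factor at CArG boxes and MEF2 factors at MEF2 sites. The upstream regions of 4 genes are shown because they belong to 2 pairs of related genes, Acta1 with Actc1 and Myl1 with Myl3, whose ratios are described below. The pairs were chosen after their values were seen. Each sequence is from RefSeq (GRCm38.p6), runs 5′ to 3′ on the strand of the gene, comes from the 250 bases upstream of the RefSeq start site, and leaves out any base that GENCODE M21 places in an exon of that gene. Capitals mark matches, on either strand, to the E-box (CANNTG), the CArG box, the MEF2 site and the TATA box (TATAAA). The stretches are Acta1, skeletal α-actin, at chr8:123894776-123895025 on the minus strand, Actc1, the cardiac and early α-actin, at chr2:114052888-114053125 on the minus strand, Myl1, the fast essential light chain, at chr1:66945144-66945290 on the minus strand, and Myl3, its slow counterpart, at chr9:110763428-110763645 on the plus strand.
Acta1: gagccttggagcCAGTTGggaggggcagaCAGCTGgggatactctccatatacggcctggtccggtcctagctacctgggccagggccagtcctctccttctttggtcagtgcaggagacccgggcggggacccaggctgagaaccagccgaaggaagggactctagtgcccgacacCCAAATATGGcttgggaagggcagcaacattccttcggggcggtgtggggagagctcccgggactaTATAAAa
Actc1: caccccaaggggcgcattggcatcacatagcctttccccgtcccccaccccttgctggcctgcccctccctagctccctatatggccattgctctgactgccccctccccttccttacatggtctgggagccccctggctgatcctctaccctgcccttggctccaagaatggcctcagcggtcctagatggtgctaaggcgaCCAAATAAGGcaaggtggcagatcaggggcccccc
Myl1: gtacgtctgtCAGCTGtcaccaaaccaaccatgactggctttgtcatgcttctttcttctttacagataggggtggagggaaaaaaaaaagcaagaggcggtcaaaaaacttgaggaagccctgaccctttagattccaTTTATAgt
Myl3: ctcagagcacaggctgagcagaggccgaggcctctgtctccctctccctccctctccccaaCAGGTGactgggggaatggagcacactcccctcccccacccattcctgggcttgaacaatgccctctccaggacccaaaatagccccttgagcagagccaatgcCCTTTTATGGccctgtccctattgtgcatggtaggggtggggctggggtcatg
A CArG box was found in the Acta1, Actc1 and Myl3 stretches, and not in that of Myl1. Promoters were listed for 26 of the 35 genes. Over the whole 250 bases, the CArG box was present in 3 of the 26 (11.5%), which were the 3 just named, compared with 1.62% of all 27025 genes in the RefSeq table. An E-box was present in 23 of the 26 (88.5%) and in 69.3% of all genes, and a MEF2 site in 4 of the 26 (15.4%), namely Casq2, Pvalb, Ttn and Xirp2, and in 3.42% of all genes. The TATA box was present in 4 of the 26 and in 14.3% of all genes. A match is a run of letters and says nothing of binding.

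The libraries held 16544800 to 17475496 counts in WT and 17405688 to 20969914 in Hbb-cKO. The targeted genes lay lower in all Hbb-cKO libraries, with Hbb-bs at 1606 to 2257 CPM (counts scaled to a common library size, after TMM normalization) against 2848 to 6394 CPM in WT, and Hbb-bt at 2589 to 3187 CPM against 4064 to 10417 CPM. Their adjusted p in edgeR was 0.218 and 0.241. One library stood apart for the genes described here. WT replicate 3 was the highest of all 6 libraries for 31 of the 35 genes, while it was the highest for 24.0% of all tested genes. It also held the lowest summed level of the 8 erythroid genes found and of the adipocyte genes among the WT libraries. Hbb-cKO replicate 1 held the lowest summed level of 15 chondrocyte genes, at 21994 CPM against 40362 to 69339 CPM in the other libraries. WT replicates 1 and 2 had 10430 and 8739 counts of Xist, which is transcribed in females, and none of 4 Y-linked genes (Ddx3y, Eif2s3y, Kdm5d and Uty). Hbb-cKO replicate 2 had 6 counts of Xist and 2907 of the Y-linked genes. The 3 other libraries, WT replicate 3 and Hbb-cKO replicates 1 and 3, had counts of both, with 2725, 5052 and 8079 of Xist and 2109, 1010 and 1242 of the Y-linked genes. The part that any of these differences between libraries plays in the results below was not tested.

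The share of a library's counts that fell on the 35 genes was 4.03%, 4.39% and 6.26% in WT replicates 1, 2 and 3, and 4.50%, 3.55% and 3.65% in Hbb-cKO replicates 1, 2 and 3. WT replicate 3 had the highest share and the groups overlapped. The mean was 4.89 ± 0.692% in WT and 3.90 ± 0.300% in Hbb-cKO (s.e.m., n = 3 libraries), a difference of -0.993 percentage points that did not pass an exact two-sided permutation test (p = 0.3, where 0.1 is the smallest p that 3 against 3 libraries allow). Without WT replicate 3 the difference was -0.309 percentage points. In bulk RNA, fewer muscle fibres in the dissected piece and less muscle RNA per fibre cannot be told apart. Skeletal myosin heavy chains were abundant beside them: Myh8, the perinatal form, stood at 7767 ± 1988 CPM and Myh4, an adult fast form, at 2362 ± 439.4 CPM in WT. Of 10 cardiac and embryonic isoforms, 7 passed the filter. Myh6, a cardiac myosin heavy chain close in sequence to Myh7, was at 7.19, 19.2 and 33.1 CPM in WT and 9.32, 11.0 and 9.96 CPM in Hbb-cKO, again highest in WT replicate 3. Tnni3, cardiac troponin I, was at 3.06 to 4.56 CPM in WT and 3.59 to 4.16 CPM in Hbb-cKO, and Ryr3, a ryanodine receptor of developing muscle, at 8.56 ± 1.74 and 10.8 ± 0.992 CPM. Ryr2 and Pln reached at most 1.31 and 1.10 CPM, and Myl7, Nppa and Nppb, which did not pass the filter, at most 0.33 CPM in any library. Summed CPM of the motor nerve and Schwann cell list, with 5 of 7 genes tested, was 350.1 to 448.3 in WT and 338.7 to 362.3 in Hbb-cKO, and the highest value was again in WT replicate 3. Chat, which marks motor neurons, had no count in any library. Tendon genes, 8 of 8 tested, summed to 32928 to 37207 CPM in WT and to 40433 to 54074 CPM in Hbb-cKO, without overlap. Most of that sum was Col1a1, at 20591 to 23546 CPM in WT and 24495 to 37581 CPM in Hbb-cKO, and Col3a1. Both are collagens that other connective tissue also makes. Of the rest of the list, Kera did not overlap, while the groups overlapped for Scx, Tnmd, Mkx, Fmod and Thbs4. Every Hbb-cKO library lay above every WT library for 8.7% of all tested genes. The parts of nerve and tendon in the values of the 35 genes were not tested.

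**Figure D1:**
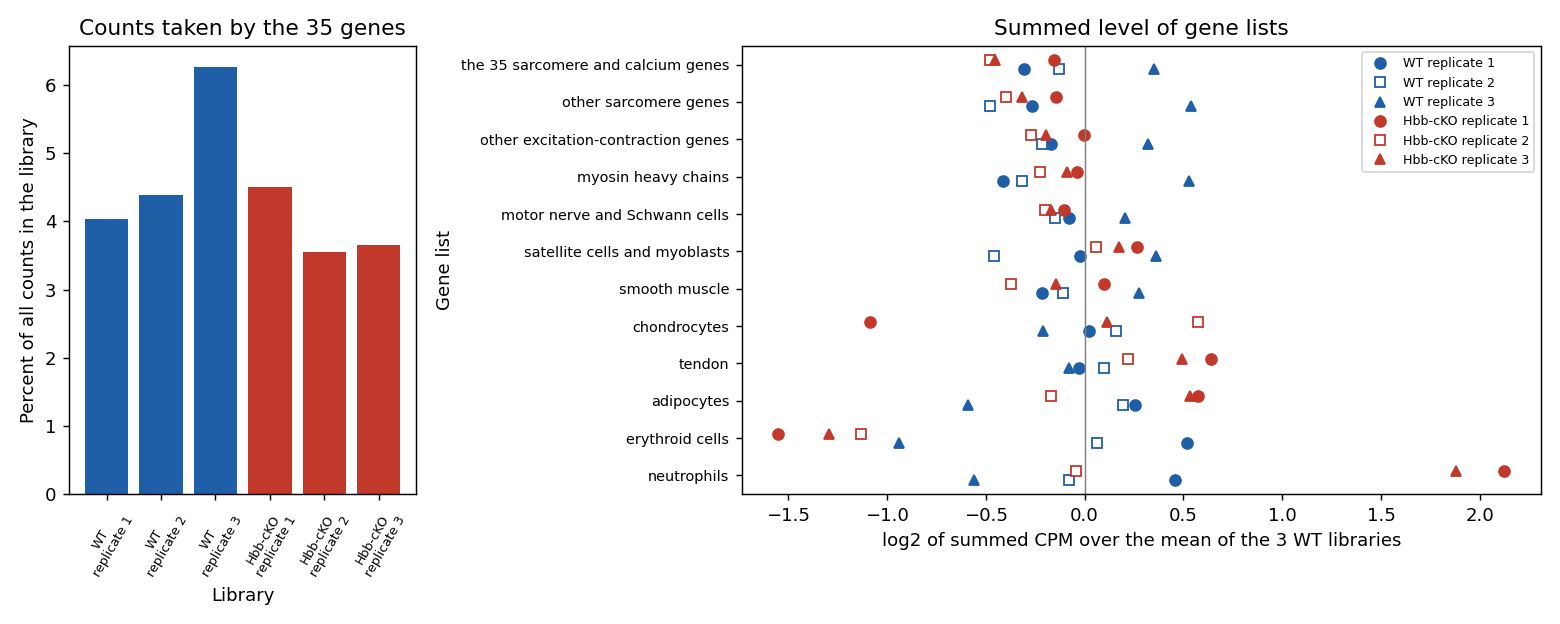
Left, percent of all counts in a library (vertical axis, from 0) that fell on the 35 genes, 1 bar per library. Right, summed CPM of 12 gene lists as log2 over the mean of the 3 WT libraries (horizontal axis), 1 point per library, blue for WT and red for Hbb-cKO. WT replicate 3, the filled blue triangle, had a share of 6.26% and lay to the right of all other libraries for the muscle and nerve lists. The smooth muscle list includes Des, 1 of the 35 genes, which gave 2022 of its 2835 CPM in WT replicate 3. Acta2, also in that list, was lowest in this library, at 225.0 CPM.

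None of the 35 genes passed the threshold of 0.05 in edgeR's quasi-likelihood test after Benjamini-Hochberg adjustment over all 17175 genes, of which 18, or 0.105%, did. The smallest adjusted p among the 35 was 0.371. Without adjustment, 7 of the 35 (20%) had a p under 0.05, all lower in Hbb-cKO, and so did 5.22% of all tested genes in that direction. They were Actn3, Ckm, Myl1, Tcap, Tnni2, Tnnt3 and Tpm1. In either direction, 10.1% of all genes had such a p. The count of 7 depended on which libraries were in the fit. It was 11, 5 and 4 without WT replicates 1, 2 and 3, where the share over all genes was 8.69%, 12.4% and 12.1%. It was 7, 1 and 0 without Hbb-cKO replicates 1, 2 and 3, where the share was 8.14%, 8.46% and 6.35%, and the gene left without Hbb-cKO replicate 2 was Pvalb. The log2 fold change, Hbb-cKO over WT, was negative for 29 of the 35 genes and for 52.5% of all genes. It ran from -0.60 to 0.29 with a median of -0.32, compared with -0.01 over all genes, and its standard error was 0.17 to 0.52. When WT replicate 3 was left out, the fold change was negative for 20 of the 35 genes, compared with 49.9% of all genes, and the median was -0.045. The lower levels in Hbb-cKO therefore depended on WT replicate 3 for their size, and 9 genes changed sign without it. For 5 of the 35 genes (14.3%) every Hbb-cKO library lay below every WT library, which held for 8.96% of all genes, and none had every Hbb-cKO library above every WT library, which held for 8.7% of all genes. The 5 were Actn3, Myl1, Tpm1, Tcap and Smpx. In GENCODE M21 (GRCm38), Actn3 (ENSMUSG00000006457) lies at chr19:4861216-4877909 on the minus strand, Myl1 (ENSMUSG00000061816) at chr1:66924295-66945404 on the minus strand, Tpm1 (ENSMUSG00000032366) at chr9:67022590-67049406 on the minus strand, Tcap (ENSMUSG00000007877) at chr11:98383811-98384953 on the plus strand and Smpx (ENSMUSG00000041476) at chrX:157698910-157752591 on the plus strand. The table gives 1 count per gene and does not separate transcripts.

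**Figure D2:**
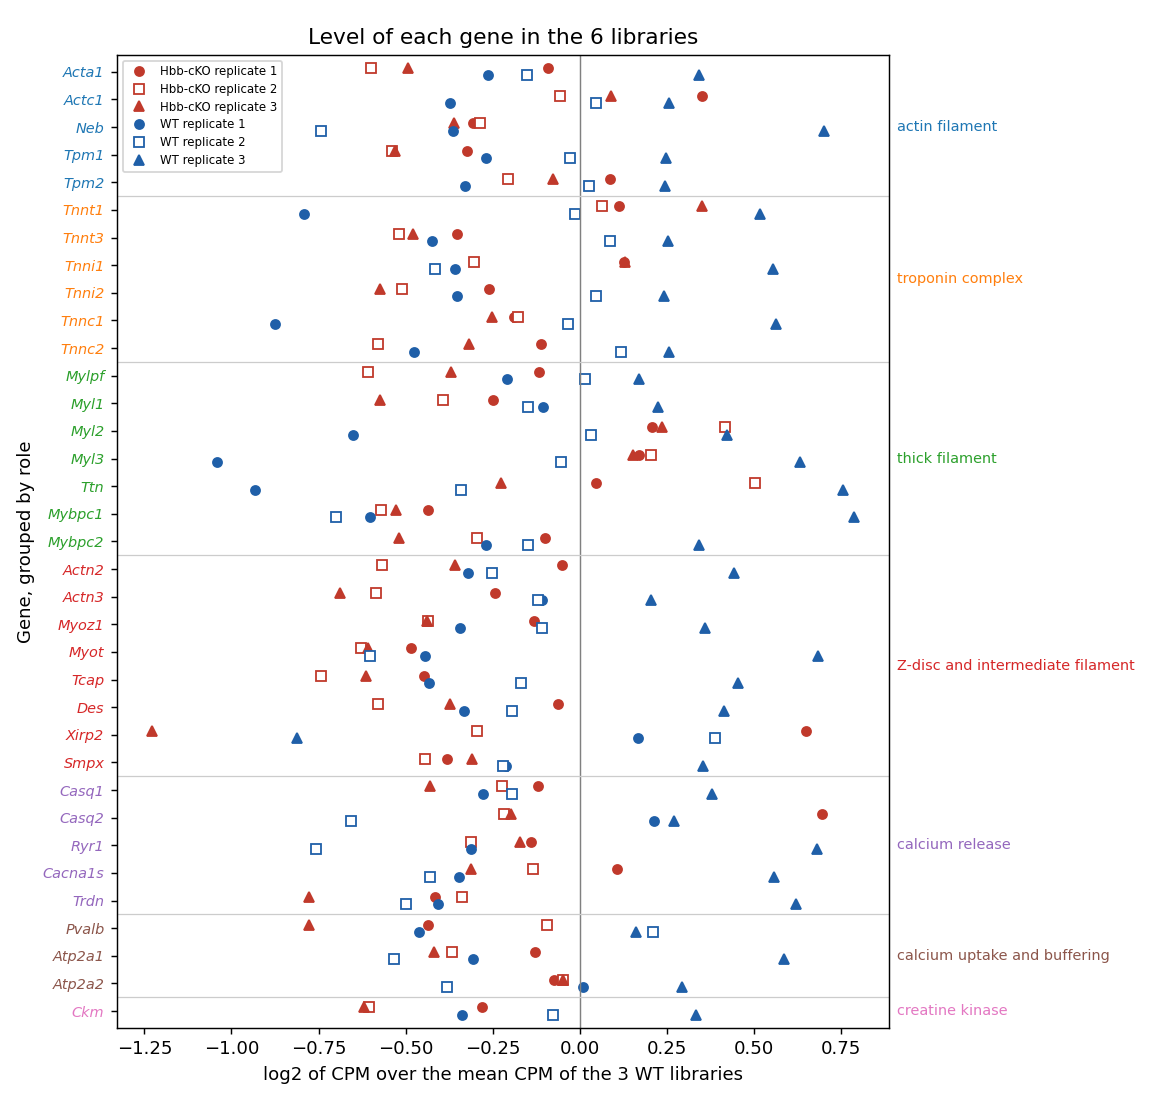
Level of each of the 35 genes in the 6 libraries, as log2 of its CPM over the mean CPM of the 3 WT libraries (horizontal axis), with genes grouped by role (vertical axis). Blue points are WT and red points Hbb-cKO, with the replicate given by the shape. The filled blue triangle of WT replicate 3 was the rightmost point for 31 genes, and the exceptions were Actc1, Casq2, Pvalb and Xirp2.

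Acta1, which encodes skeletal α-actin and builds the thin filament, was the most abundant of the 35 genes in WT (ENSMUSG00000031972, chr8:123891769-123894751, minus strand). Its level was 11441, 12364 and 17398 CPM in WT replicates 1, 2 and 3 and 12885, 9059 and 9748 CPM in Hbb-cKO. Hbb-cKO replicates 2 and 3 were the lowest 2 libraries, whereas Hbb-cKO replicate 1 exceeded both WT replicates 1 and 2, so that the groups overlapped. The log2 fold change was -0.38 ± 0.23 (SE; adjusted p = 0.622 in edgeR). Actc1, the α-actin of heart and of young skeletal muscle, was at 291.9, 390.4 and 451.2 CPM in WT and 481.4, 363.3 and 402.2 CPM in Hbb-cKO. Here Hbb-cKO replicate 1 was the highest library and WT replicate 1 the lowest, and the log2 fold change was 0.14 ± 0.19. Tpm1, an α-tropomyosin that lies along actin and blocks myosin at rest, was at 1958, 2314 and 2801 CPM in WT and 1882, 1622 and 1633 CPM in Hbb-cKO. All Hbb-cKO libraries were below all WT libraries, with WT replicate 1 close to Hbb-cKO replicate 1, and the log2 fold change was -0.46 ± 0.17 (adjusted p = 0.408 in edgeR). Tpm2, β-tropomyosin, lay closer together, at 1359 to 2024 CPM in WT and 1480 to 1812 CPM in Hbb-cKO, with a log2 fold change of -0.06 ± 0.18. Neb, nebulin, the giant protein that spans the thin filament, was at 539.2, 414.7 and 1127 CPM in WT and at 560.3, 568.2 and 539.5 CPM in Hbb-cKO. WT replicate 3 alone set the WT mean above the Hbb-cKO mean, and the log2 fold change of -0.32 ± 0.35 became 0.222 without it.

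Troponin has 3 subunits, and each has a fast and a slow gene here. Among the fast genes, Tnnt3, the subunit that binds tropomyosin, was at 2083, 2968 and 3327 CPM in WT and 2188, 1947 and 2004 CPM in Hbb-cKO. WT replicate 1 fell within the Hbb-cKO range, and the log2 fold change was -0.45 ± 0.19 (adjusted p = 0.494 in edgeR). Tnni2, the inhibitory subunit, was at 967.3, 1276 and 1460 CPM in WT and 1031, 866.9 and 830.1 CPM in Hbb-cKO. Only WT replicate 1 and Hbb-cKO replicate 1 crossed over, and the log2 fold change was -0.44 ± 0.18 (adjusted p = 0.473 in edgeR). Tnnc2, the calcium-binding subunit, was at 1978 to 3286 CPM in WT and 1840 to 2543 CPM in Hbb-cKO, with a log2 fold change of -0.32 ± 0.22. The annotated exons of Tnnc2 share at least 592 bases with Ube2c on the other strand, but Ube2c reached only 79.0 CPM in any library.

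The slow troponin genes were far less abundant. Tnnt1 was at 40.3 and 69.1 CPM in WT replicates 1 and 2, at 1.83 times their mean in WT replicate 3, and at 75.5, 73.0 and 89.1 CPM in Hbb-cKO, so that the 3 Hbb-cKO libraries lay between the second and the highest WT library. Tnni1 was at 31.0, 29.8 and 58.4 CPM in WT and 43.4, 32.2 and 43.5 CPM in Hbb-cKO. All Hbb-cKO libraries exceeded WT replicates 1 and 2 and were below WT replicate 3, and the group means were both 39.7 CPM. Tnnc1 was at 21.1, 37.8 and 57.1 CPM in WT and 33.9, 34.2 and 32.5 CPM in Hbb-cKO, where the 3 libraries were close together inside a wide WT range. The log2 fold changes of the slow troponin genes were 0.18 ± 0.30, -0.002 ± 0.28 and -0.21 ± 0.32 in the order given. Without WT replicate 3, that of Tnni1 was 0.385 and that of Tnnc1 was 0.189.

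In the thick filament, Mylpf, the fast regulatory light chain of myosin, was at 2997, 3498 and 3891 CPM in WT and 3189, 2271 and 2677 CPM in Hbb-cKO. Hbb-cKO replicate 1 exceeded WT replicate 1, and the log2 fold change was -0.35 ± 0.18 (adjusted p = 0.56 in edgeR). Myl1, the fast essential light chain, was at 2270, 2203 and 2851 CPM in WT and 2053, 1861 and 1642 CPM in Hbb-cKO. The groups did not overlap, and the log2 fold change was -0.40 ± 0.17 (adjusted p = 0.47 in edgeR). Of the 50-base windows of the Myl1 transcript, 23.4% also occur in the pseudogene Mylf-ps, which was at 162.7 to 242.2 CPM, so that the Myl1 count is uncertain by how such reads were assigned. Myl2, the slow regulatory light chain, was at 22.7, 36.5 and 47.8 CPM in WT and 41.2, 47.6 and 42.0 CPM in Hbb-cKO. Hbb-cKO libraries lay above WT replicates 1 and 2 and just below WT replicate 3, with a log2 fold change of 0.29 ± 0.25. Myl3, the slow essential light chain, was at 18.7, 37.1 and 59.7 CPM in WT and 43.3, 44.4 and 42.8 CPM in Hbb-cKO. The same order of libraries was seen, with a log2 fold change of 0.18 ± 0.37. The exons of Myl3 share at least 95 bases with Pth1r, the parathyroid hormone receptor gene of chondrocytes. This is the largest overlap of a single Pth1r exon, and the total was not computed. Pth1r was at 161.6 to 231.1 CPM in WT and 233.7 to 323.2 CPM in Hbb-cKO. Reads of Pth1r spread evenly along its transcript would put 6.66 to 13.3 CPM over these 95 bases, up to 42.2% of the Myl3 level. Any further shared bases would add to this. The sources used here do not say whether counting used the strand.

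Among the larger proteins of the thick filament, Mybpc1, slow myosin-binding protein C, was at 701.6, 656.6 and 1840 CPM in WT and 788.7, 718.3 and 740.2 CPM in Hbb-cKO. WT replicate 3 held 2.71 times the mean of the other WT libraries, the largest such ratio of the 35 genes, and all Hbb-cKO libraries exceeded those 2. Mybpc2, the fast form, was at 290.7, 315.9 and 444.4 CPM in WT and 326.9, 285.6 and 244.7 CPM in Hbb-cKO, with 1 Hbb-cKO library above WT replicates 1 and 2. The log2 fold changes were -0.51 ± 0.39 for Mybpc1 and -0.29 ± 0.19 for Mybpc2. Ttn, titin, the elastic protein that links the Z-disc to the middle of the sarcomere, was at 509.5, 768.0 and 1642 CPM in WT and 1006, 1380 and 832.7 CPM in Hbb-cKO. Every Hbb-cKO library again lay between the second and the highest WT library, and the log2 fold change was 0.14 ± 0.43. WT replicate 3 held 2.57 times the mean of the other WT libraries for Ttn and 1.47 times for Mybpc2, against a median of 1.5 over the 35 genes. Without WT replicate 3, 4 of the 35 genes had p under 0.05 in edgeR, as did 12.1% of all genes in that fit. Of the 4, Myl2, Tnni1 and Ttn were higher in Hbb-cKO and Actn3 was lower, and none passed after adjustment.

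All 8 genes of the Z-disc and intermediate filaments had a negative log2 fold change, with a median of -0.36, compared with 52.5% negative over all genes. Against WT replicates 1 and 2 alone, the Hbb-cKO mean was 0.769 (Actn3) to 0.983 (Actn2) times their mean. Actn3, the α-actinin of fast fibres, which crosslinks thin filaments at the Z-disc, was at 1083, 1074 and 1346 CPM in WT and 985.7, 777.7 and 724.6 CPM in Hbb-cKO. The groups did not overlap, the log2 fold change was -0.49 ± 0.17 (edgeR's adjusted p was 0.371), and its p in edgeR before adjustment was under 0.05 with all libraries and without WT replicate 3, but not without Hbb-cKO replicate 2 or without Hbb-cKO replicate 3. Its relative Actn2, present in all fibres, was at 636.7, 668.3 and 1082 CPM in WT and 767.7, 537.3 and 620.2 CPM in Hbb-cKO, with overlap and a log2 fold change of -0.31 ± 0.24. Tcap, telethonin, which caps titin at the Z-disc, was at 218.2, 262.1 and 403.3 CPM in WT and 216.2, 176.0 and 192.4 CPM in Hbb-cKO. It had the most negative log2 fold change of the 35 genes, -0.60 ± 0.22 (adjusted p = 0.424 in edgeR), although WT replicate 1 and Hbb-cKO replicate 1 were almost equal. Smpx, a small muscle protein of the costamere, was at 86.6, 86.0 and 128.0 CPM in WT and 76.9, 73.6 and 80.9 CPM in Hbb-cKO. The groups did not overlap, and the log2 fold change was -0.38 ± 0.17 (adjusted p = 0.504 in edgeR).

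Myot, myotilin, and Myoz1, calsarcin of fast fibres, both bind α-actinin. Myot was at 167.1, 149.5 and 364.9 CPM in WT and 162.4, 147.0 and 149.0 CPM in Hbb-cKO, so that WT replicate 3 was 2.31 times as high as the mean of the 2 other WT libraries, which were level with Hbb-cKO. Myoz1 ranged from 342.0 to 556.7 CPM in WT and from 319.7 to 395.7 CPM in Hbb-cKO. Des, desmin, the intermediate filament that ties myofibrils together, ranged from 1206 to 2022 CPM in WT and from 1017 to 1455 CPM in Hbb-cKO. The groups overlapped for all 3 genes. Xirp2, an actin-binding repeat protein, went against the order of libraries seen elsewhere, at 69.9, 81.5 and 35.5 CPM in WT and 97.7, 50.8 and 26.6 CPM in Hbb-cKO. WT replicate 3 was here the lowest of the WT libraries, and the standard error of the log2 fold change, 0.52, was the largest of the 35 genes.

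**Figure D3:**
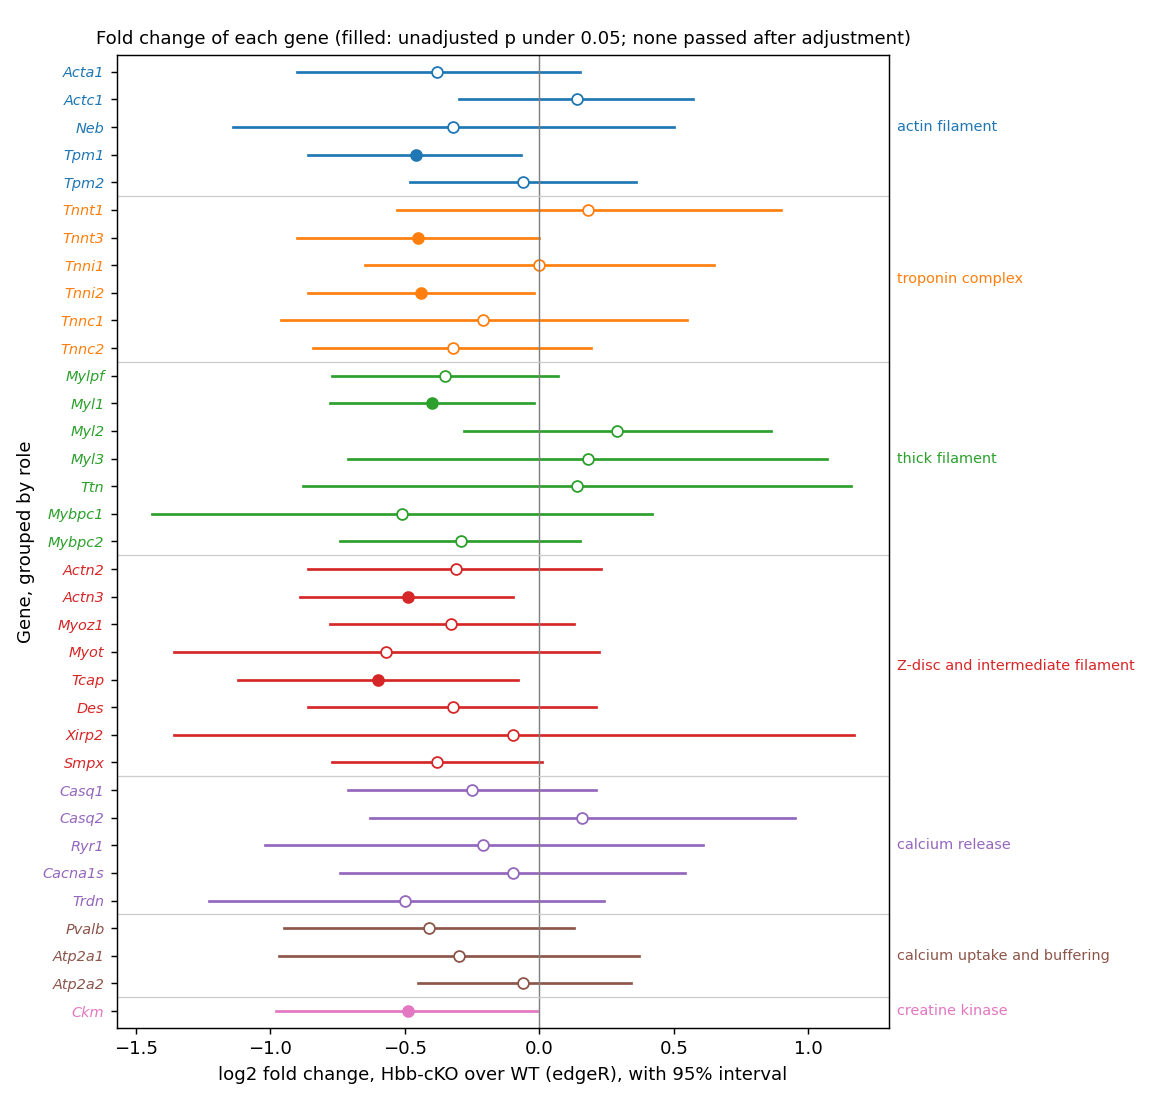
Log2 fold change of each of the 35 genes, Hbb-cKO over WT, from edgeR (horizontal axis, points) with its 95% interval (lines), grouped by role (vertical axis). Filled points have p under 0.05 before adjustment and are 7 genes, all to the left of 0, and none passed after adjustment.

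Calcium release was represented by 5 genes, with a median log2 fold change of -0.21, and none had p under 0.05 in edgeR. Cacna1s, the voltage sensor, was at 137.6, 130.1 and 257.7 CPM in WT and 188.6, 159.7 and 141.1 CPM in Hbb-cKO. Ryr1, the ryanodine receptor that the sensor opens, was at 348.2, 255.6 and 692.1 CPM in WT and 392.3, 347.9 and 383.8 CPM in Hbb-cKO. For both genes the Hbb-cKO libraries lay between the WT libraries, and the log2 fold changes of -0.10 ± 0.27 and -0.21 ± 0.34 became 0.286 and 0.312 without WT replicate 3. An antisense gene, Gm37759, shares at least 1309 exonic bases with Cacna1s and was at 9.34 to 17.6 CPM. Trdn, triadin, which anchors calsequestrin beside the receptor, was at 78.2, 73.3 and 159.3 CPM in WT and 77.6, 82.0 and 60.5 CPM in Hbb-cKO, with a log2 fold change of -0.50 ± 0.31. Casq1, the fast calsequestrin, ranged from 699.1 to 1103 CPM in WT and from 629.2 to 779.9 CPM in Hbb-cKO. Casq2, the slow and cardiac calsequestrin, was at 204.6, 111.8 and 212.7 CPM in WT and 285.4, 151.7 and 153.9 CPM in Hbb-cKO. Hbb-cKO replicate 1 was the highest library for Casq2, as it was for Actc1 and Xirp2, and the log2 fold change was 0.16 ± 0.33.

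Of the genes for calcium uptake and buffering, Atp2a1, the calcium pump of fast fibres, was at 2423, 2069 and 4498 CPM in WT and 2741, 2325 and 2240 CPM in Hbb-cKO. WT replicate 3 was far above all other libraries, and the log2 fold change of -0.30 ± 0.29 became 0.117 without it. Atp2a2, the pump of slow fibres that many other cells also use, was steadier, at 173.0 to 276.4 CPM in WT and 214.4 to 218.2 CPM in Hbb-cKO, with a log2 fold change of -0.06 ± 0.17. Pvalb, parvalbumin, which buffers calcium in fast fibres, was at 449.0, 715.4 and 691.4 CPM in WT and 457.0, 579.9 and 360.9 CPM in Hbb-cKO. WT replicate 2 was the highest library for this gene alone, and the log2 fold change was -0.41 ± 0.23 (adjusted p = 0.599 in edgeR). Ckm, which regenerates ATP beside the myosin heads, was at 4028, 4828 and 6421 CPM in WT against 4194, 3346 and 3312 CPM in Hbb-cKO. Hbb-cKO replicate 1 was just above WT replicate 1, and the log2 fold change was -0.49 ± 0.21 (adjusted p = 0.49 in edgeR).

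Divided by transcript length, in CPM per kilobase, the WT mean of Acta1 was 9498, followed by Mylpf at 4520, Tnnc2 at 3928, Myl1 at 3041 and Tnnt3 at 2773. The giant genes were at the other end, with Neb at 30.8, Ryr1 at 28.1, Ttn at 9.69 and Xirp2 at 5.21 CPM per kilobase. Within each of 10 pairs of related genes, the ratio of the counts of both genes in the same library is free of library scaling. Per length, the slow or early gene made up 0.862 ± 0.116% of the regulatory light chain pair (Myl2 with Mylpf), 1.29 ± 0.313% of the essential light chain pair, 1.30 ± 0.188% of troponin C, 2.08 ± 0.308% of troponin I, 2.32 ± 0.292% of troponin T and 2.64 ± 0.182% of α-actin in WT. It made up 5.80 ± 0.658% of the calcium pump pair and 13.2 ± 2.25% of calsequestrin. Mybpc1, named as the slow form, was in contrast the larger part of myosin-binding protein C, at 71.3 ± 4.08%. Actn2 was 39.0 ± 2.3% of the α-actinins.

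The log2 ratio of the slow or early gene to its partner was higher in Hbb-cKO in 9 of the 10 pairs, by 0.19 to 0.73, and differed by -0.06 for Mybpc1 to Mybpc2. In 4 pairs all Hbb-cKO libraries were above all WT libraries. How often this holds for ratios of other genes was not tested. Among single genes, 8.7% of all tested genes had every Hbb-cKO library above every WT library. For Actc1 to Acta1 the log2 ratio was -5.29, -4.98 and -5.27 in WT and -4.74, -4.64 and -4.60 in Hbb-cKO. Actc1 was thus 2.64 ± 0.182% of the pair in WT and 3.74 ± 0.105% in Hbb-cKO, and the smallest Hbb-cKO ratio exceeded the largest WT ratio. For Tnnt1 to Tnnt3 it was -5.69, -5.43 and -5.06 in WT and -4.86, -4.74 and -4.49 in Hbb-cKO, or 2.32 ± 0.292% against 3.67 ± 0.269% of the pair. For Myl2 to Mylpf it was -7.04, -6.58 and -6.35 in WT and -6.27, -5.58 and -5.99 in Hbb-cKO, or 0.862 ± 0.116% against 1.40 ± 0.197%. In both pairs WT replicate 3 was the WT library closest to Hbb-cKO. For Myl3 to Myl1 it was -6.92, -5.89 and -5.58 in WT and -5.57, -5.39 and -5.26 in Hbb-cKO, or 1.29 ± 0.313% against 1.99 ± 0.119%. Here WT replicate 3 and Hbb-cKO replicate 1 almost touched. When the reads that Pth1r would give over 95 shared bases were taken off Myl3, the groups overlapped (difference of 0.76, exact permutation p = 0.3). That alternative was added after the data were seen. In each of the 4 pairs the exact two-sided permutation p was 0.1, the smallest that 3 against 3 libraries allow, and 0.25 after Benjamini-Hochberg adjustment over the 10 pairs. No pair could therefore pass a threshold of 0.05. Without WT replicate 3 the differences were 0.48, 0.86, 0.87 and 1.00 in the order given. Over the 6 libraries left out in turn they lay between 0.47 and 0.62 for the actins, 0.55 and 0.86 for troponin T, 0.52 and 0.87 for the regulatory and 0.33 and 1.00 for the essential light chains, and the lowest value for Myl3 to Myl1 was the one without WT replicate 1. Of the 5 other pairs with a higher ratio in Hbb-cKO, the lowest values were 0.28 of 0.48 for Tnni1 to Tnni2 (without WT replicate 2), 0.15 of 0.38 for Casq2 to Casq1 (without Hbb-cKO replicate 1), 0.13 of 0.22 for Actn2 to Actn3 and 0.05 of 0.21 for Tnnc1 to Tnnc2 (both without WT replicate 1), and 0.01 of 0.19 for Atp2a2 to Atp2a1 (without WT replicate 3).

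**Figure D4:**
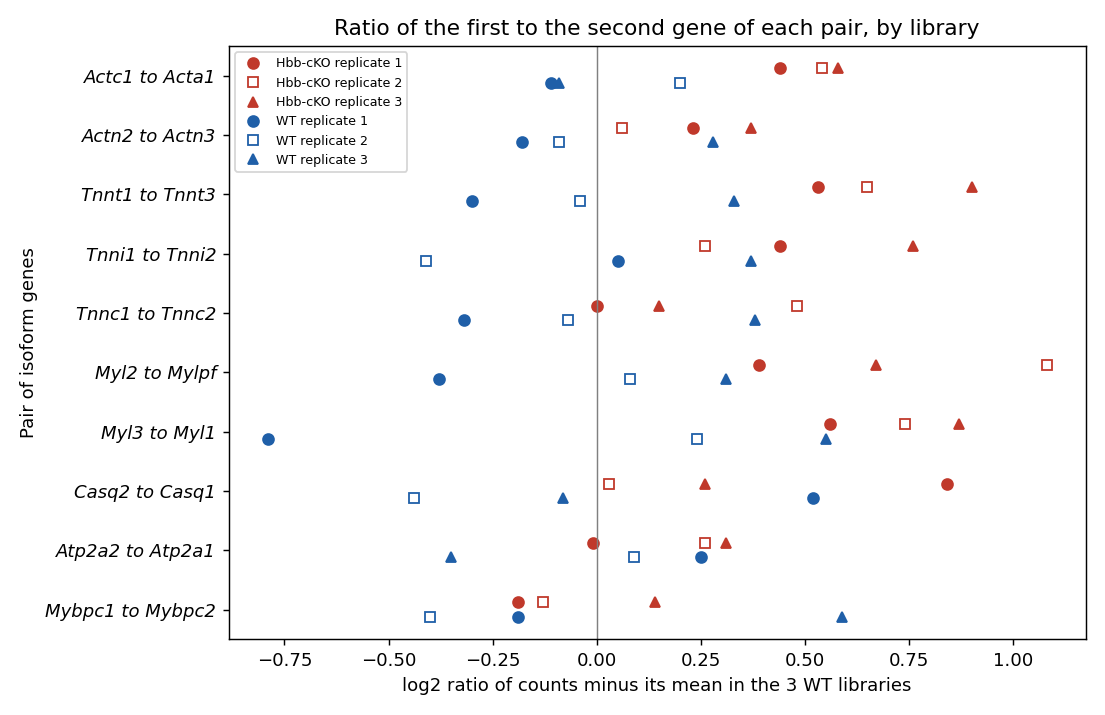
Log2 ratio of the counts of the first to the second gene of each of 10 pairs, less its mean in the 3 WT libraries (horizontal axis), by pair (vertical axis), with 1 point per library, blue for WT and red for Hbb-cKO. The red points lay to the right of all blue points for Actc1 to Acta1, Tnnt1 to Tnnt3, Myl2 to Mylpf and Myl3 to Myl1, the pairs with differences of 0.52 to 0.73.

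Summed per length over 5 slow genes (Tnnt1, Tnni1, Tnnc1, Myl2 and Myl3) and their 5 fast partners, the slow genes made up 1.08%, 1.38% and 1.83% in WT and 1.78%, 2.20% and 2.19% in Hbb-cKO. Hbb-cKO replicate 1 and WT replicate 3 crossed, and the difference of 0.56 on the log2 scale had an exact two-sided permutation p of 0.2. The difference was 0.37 without WT replicate 1. This sum was not planned in advance. It leaves out the slow and fast pairs of calsequestrin, calcium pump and myosin-binding protein C, whose log2 ratios differed by 0.38, 0.19 and -0.06. The 6 myosin heavy chains measured were no members of the list. Myh7, the slow form, was at 80.8, 122.5 and 223.4 CPM in WT and 229.1, 236.3 and 257.8 CPM in Hbb-cKO, and Myh2, of oxidative fast fibres, at 105.8, 147.3 and 186.4 CPM and 226.2, 307.4 and 278.6 CPM. For both genes every Hbb-cKO library lay above every WT library, which held for 8.7% of all tested genes. The log2 fold changes were 0.76 ± 0.34 and 0.89 ± 0.22 with adjusted p of 0.521 and 0.241 in edgeR. The groups overlapped for the 4 others. Embryonic Myh3 was at 180.8 to 299.6 CPM in WT and 223.8 to 359.7 CPM in Hbb-cKO, with a log2 fold change of 0.44 ± 0.25. The fast forms Myh4 and Myh1 had log2 fold changes of 0.24 ± 0.27 and 0.03 ± 0.19, with Hbb-cKO means of 2794 ± 365.3 and 1466 ± 99.0 CPM. Perinatal Myh8 was at 5836, 5722 and 11744 CPM in WT and 6912, 4422 and 6915 CPM in Hbb-cKO, with a log2 fold change of -0.35 ± 0.32.

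The excess of WT replicate 3 was not even over the 35 genes. Over the 12 genes with a transcript of 3000 bases or more, its median ratio to the geometric mean of WT replicates 1 and 2 was 1.96, and over the 23 shorter ones it was 1.46. Across all 10641 genes at 10 CPM or more, the same ratio had a median of 1.08 for transcripts of 3000 bases or more and of 0.896 for shorter ones, with a Spearman rho of 0.44 between ratio and length over genes that share the same libraries. Among the 35 genes rho was 0.37. For all genes the length was that of the longest annotated transcript, and for the 35 genes that of the principal transcript. The values for all genes and for the 35 genes are therefore not on the same measure of length. Among the 23 shorter genes, Myot was 2.31 times as high in WT replicate 3 as in the mean of WT replicates 1 and 2. The slow genes Myl3, Tnnc1, Tnni1 and Tnnt1 came next at 2.14, 1.94, 1.92 and 1.83 times, while Myl2 and Casq2, which are also slow, were at 1.61 and 1.34 times and the fast light chains Mylpf and Myl1 at 1.20 and 1.27 times. What part transcript length plays in the values of the 35 genes was not tested.

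**Figure D5:**
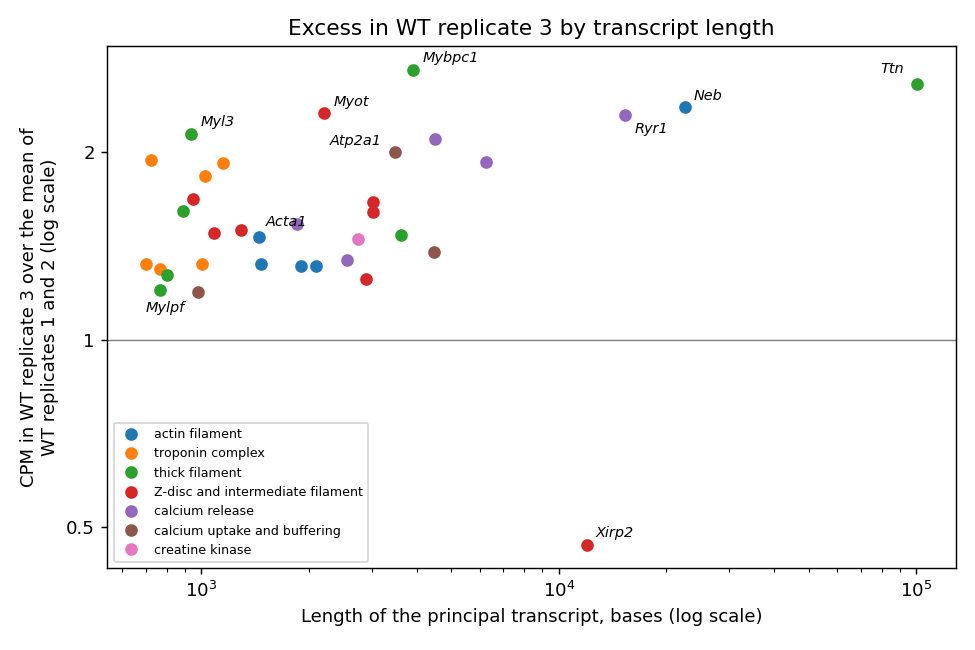
CPM in WT replicate 3 over the mean of WT replicates 1 and 2 (vertical axis, log scale) by length of the principal transcript in bases (horizontal axis, log scale), 1 point per gene, coloured by role. All genes except Xirp2 lay above 1, from 1.19 for Pvalb to 2.71 for Mybpc1.

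The other genes of the pathway were described in lists that held no member. Of 26 other sarcomere genes, none passed the threshold, 21 had a negative log2 fold change and the median was -0.23, which became 0.14 without WT replicate 3. Their most abundant genes were Ldb3, a Z-disc protein, at 486.0 ± 106.1 CPM in WT and 385.8 ± 21.7 CPM in Hbb-cKO, and Flnc, muscle filamin, at 406.5 ± 122.4 and 337.6 ± 26.1 CPM. Of 20 other genes of excitation-contraction coupling, none passed, 13 were negative and the median was -0.10, or 0.16 without WT replicate 3. Srl, sarcalumenin, which binds calcium in the store, was at 554.0 ± 131.1 CPM in WT and 439.7 ± 15.1 CPM in Hbb-cKO, and Bin1, which shapes the transverse tubules, at 419.9 ± 39.7 and 388.9 ± 33.2 CPM. The 11 other muscle energy genes had a median of -0.07 and were led by Eno3, muscle enolase, at 1186 ± 138.7 CPM in WT and 1133 ± 101.3 CPM in Hbb-cKO, and Pgam2 at 476.5 ± 59.1 and 467.3 ± 34.2 CPM. Among 10 genes of satellite cells and myoblasts, none passed and the median was 0.15, with Mef2c at 146.9 ± 35.4 CPM in WT and 179.1 ± 3.32 CPM in Hbb-cKO and Myog at 53.5 ± 5.69 and 61.3 ± 3.11 CPM. The median over 16 non-muscle isoforms, among them Actb at 776.4 ± 120.6 and 943.8 ± 77.4 CPM and Actg1 at 663.3 ± 97.5 and 760.9 ± 36.0 CPM, was 0.10, and none passed.

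Marker lists of other cell types held no gene past the threshold either. Their 2 most abundant genes are given as WT and Hbb-cKO means with s.e.m. For cartilage collagens the means were close, with Col2a1 at 25895 ± 2031 and 25987 ± 7880 CPM and Col11a2 at 3858 ± 248.8 and 4261 ± 919.5 CPM. The Hbb-cKO libraries were far apart, with Col2a1 at 11307, 38294 and 28358 CPM against 22280 to 29308 CPM in WT. Collagens of tendon and other connective tissue stood at 21860 ± 878.1 and 31685 ± 3833 CPM for Col1a1 and 8766 ± 56.4 and 11668 ± 276.9 CPM for Col3a1. The nerve list was led by Pmp22, a myelin protein gene that many cells express, at 345.1 ± 17.3 and 316.1 ± 2.07 CPM, and Mbp, myelin basic protein, at 19.9 ± 10.4 and 10.1 ± 3.65 CPM, where WT replicate 3 reached 40.7 CPM. Of the smooth muscle list, which shares Des with the 35 genes, Acta2 was at 258.2 ± 19.5 and 273.1 ± 14.7 CPM. Embryonic light chain Myl4 was at 103.3 ± 2.41 and 105.1 ± 12 CPM, and Tnnt2, cardiac troponin T, at 38.0 ± 10.5 and 25.1 ± 2.28 CPM. Among blood and fat genes, Hba-a1 was at 11594 ± 3294 and 4691 ± 423.3 CPM, S100a9 at 8.58 ± 1.69 and 23.1 ± 8.0 CPM, S100a8 at 7.67 ± 1.85 and 18.8 ± 5.85 CPM, Fabp4 at 384.7 ± 51.0 and 483.2 ± 63.2 CPM, and Adipoq at 68.3 ± 20 and 88.5 ± 19.3 CPM.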

How the data were processed

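RNA sequencing of knee cartilage at P6 was analysed from a single table of counts per gene for 6 libraries. The deposited counts are whole numbers that the authors did not normalize. The submitters' notes list edgeR and StringTie without a version, HISAT2 2.1.0, and fastp 0.19.5 and CASAVA 1.8, while the counting settings, build and strand setting are absent from the sources used here. Of the identifiers that GENCODE M21 (GRCm38) holds, 99.4% had the same position in the table. The labelled genotype set each library's group.

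edgeR 4.0.16 (R 4.3.3) kept 17175 genes (minimum count 10, minimum total 15), scaled libraries by TMM and tested Hbb-cKO against WT by a robust quasi-likelihood fit, with Benjamini-Hochberg adjustment and a threshold of 0.05. The fit was tested on simulated counts. Means are given with s.e.m., and fold changes with the standard error of the fit. Single values and ratios were compared by exact two-sided permutation tests over libraries (SciPy 1.17.1). CPM per kilobase used the principal transcript of each gene. Spearman correlations over genes are descriptions, since genes share libraries. The genes and lists were chosen with earlier results of these data known. The text names all 35 genes and, from each other list, the 2 genes with the highest mean CPM and any past the threshold. Beyond this rule it names the rest of the heavy chain, cardiac, tendon and erythroid lists and Chat, chosen after their values were seen. It also names genes that share sequence with a member. A gene of the nerve list is not reported here and was left out of its sums. DESeq2 1.42.0, other scalings, other filters, a replicate block and leaving out each library were run as alternatives.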

Additional observations from a re-analysis of the deposited data

How the results depend on the processing

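None of the 35 genes passed the threshold in any of the 12 alternatives, in edgeR or DESeq2, although the count over all genes moved from 18 to 249 with DESeq2, to 60 without a filter and to 4 with the replicate block, and ranged from 1 to 39 when 1 library was left out. The median log2 fold change of the 35 genes ranged from -0.442 to -0.045 when 1 library was left out, the latter without WT replicate 3, and was -0.283 in the fit with the replicate number as a block, where 2 of the 35 genes, Actn3 and Tcap, had an unadjusted p under 0.05, as did 7.55% of all genes. Whether the replicate numbers pair the libraries is not known. The deviations of libraries with the same number from their group means correlated at -0.036, -0.115 and -0.024. With means of only 3 libraries this check cannot show whether libraries were paired. The share of counts tested by exact sign flips in pairs of the same number had p = 0.5, where 0.25 is the smallest possible. The difference in the share of counts ranged from -1.42 to -0.309 percentage points over the libraries left out.

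The log2 fold changes of 20 of the 35 genes kept their sign in every alternative. With all libraries in, only Tnni1, at -0.002, changed sign, to 0.006 with DESeq2 and with RLE factors, 0.013 without a filter and 0.055 with the replicate block. Leaving out 1 library at a time gave ranges across 0 of -0.012 to 0.286 for Actc1, -0.088 to 0.535 for Tnnt1, -0.155 to 0.385 for Tnni1, -0.494 to 0.189 for Tnnc1, -0.147 to 0.643 for Myl3, -0.16 to 0.749 for Ttn, -0.565 to 0.222 for Neb and -0.201 to 0.317 for Casq2. The same was so for Ryr1 (-0.455 to 0.312), Atp2a1 (-0.489 to 0.117), Atp2a2 (-0.20 to 0.117), Tpm2 (-0.195 to 0.08), Mybpc1 (-0.743 to 0.142), Xirp2 (-0.681 to 0.255) and Cacna1s (-0.259 to 0.286). The log2 ratio of Mybpc1 to Mybpc2 ranged from -0.26 to 0.24, and each of the 9 other pairs kept its direction, although leaving out 1 library moved 6 of them by more than 1.5 times: Myl3 to Myl1 to 0.33 (WT replicate 1), Tnni1 to Tnni2 to 0.28 (WT replicate 2), Casq2 to Casq1 to 0.15, 0.16 and 0.64 (Hbb-cKO replicate 1, WT replicates 2 and 1), Actn2 to Actn3 to 0.13, 0.14 and 0.35 (WT replicate 1, Hbb-cKO replicate 3, WT replicate 3), Tnnc1 to Tnnc2 to 0.05, 0.08, 0.32 and 0.41 (WT replicate 1, Hbb-cKO replicates 2 and 1, WT replicate 3), and Atp2a2 to Atp2a1 to 0.01, 0.29 and 0.32 (WT replicate 3, Hbb-cKO replicate 1, WT replicate 1). The cause of these changes was not tested beyond the library named. With all annotated exonic bases as gene length, an alternative added after the data were seen, the WT share of Myl2 in its pair was 0.547% and that of Actc1 2.56%.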
